A study of Arabidopsis thaliana with 6 samples.

Results

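LCR68 and PDF1.2 are a pair of plant defensin genes of Arabidopsis thaliana, each read by 1 probe set (a group of short probes summed up as a single signal) among the 22810 on the ATH1 array. The members are the 2 probe sets whose only gene in the platform's annotation is LCR68 (AT2G02130, also called PDF2.3, on chromosome 2) or PDF1.2 (AT5G44420, also called PDF1.2A and LCR77, on chromosome 5). Of the genes the annotation names, 13286 have a probe set of their own, and 2 are described here. The pair was selected on measured signals of these arrays, with the difference between pho1 and wild type known. That difference between the genotypes is therefore described here without a test. Rosette leaves were compared at growth stage 3.90 between 3 samples of wild-type Col-2 and 3 of pho1, a mutant obtained by EMS (chemical) mutagenesis in the Col-2 background. All plants were kept in a growth room with a 16 h photoperiod, 80% humidity and 24 °C, on MS salts and 1% sucrose in 0.8% agar. MS salts contain phosphate, and the labels name no further treatment. The labels do not say whether replicates 1, 2 and 3 came from separate plants, and p-values below thus cover only the spread from sample to sample, part of which may be technical. In rosette leaves taken whole, fewer cells that express a gene and less RNA per cell cannot be told apart.

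Plant defensins are small secreted proteins held together by disulfide bridges between conserved cysteines, and many of them stop the growth of fungi. PDF1.2 is the standard marker of the combined jasmonate and ethylene response: the ethylene factor EIN3 and the jasmonate receptor pathway act through ERF transcription factors on its promoter, and salicylate signalling holds it down. Defensins of the PDF2 class, to which LCR68 belongs, are in contrast known for expression in healthy tissue without a pathogen. PHO1 exports phosphate from root cells into the xylem, and pho1 shoots are short of phosphate for lack of it. No probe set is paired with PHO1, so its transcript is not analysed here.

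LCR68 was a bright probe set that lay higher in pho1 than in wild type. Its signal was 597.0, 616.3 and 497.4 in wild-type replicates 1, 2 and 3, and 1367.9, 1279.0 and 1859.9 in pho1 replicates 1, 2 and 3. Every pho1 array was above every wild-type array, and the lowest pho1 signal was 2.08 times the highest wild-type signal. The means were 570.2 ± 63.8 in wild type and 1502 ± 313 in pho1 (SD, n = 3 each), a ratio of 2.63. Between arrays of the same replicate number the ratio was 2.29, 2.08 and 3.74 for replicates 1, 2 and 3. On the log2(signal + 10) scale, used for all log2 differences here, the difference was 1.37, and 1.18, 1.04 and 1.88 by replicate number. These values belong to the contrast that was known when the gene was chosen. For comparison, all pho1 arrays lay above all wild-type arrays in 10.8% of the 15922 probe sets bright enough to be tested.

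PDF1.2 was dim and uneven between replicates, and its groups overlapped. The signal was 21.3, 48.4 and 102.9 in wild-type replicates 1, 2 and 3, and 12.1, 52.9 and 50.2 in pho1 replicates 1, 2 and 3. The highest signal was a wild-type one and the lowest a pho1 one, and the middle values of both genotypes lay together near 50. The means were 57.5 ± 41.6 in wild type and 38.4 ± 22.8 in pho1 (SD, n = 3 each). Mean log2 values differed by -0.43, with -0.50, 0.11 and -0.91 for replicates 1, 2 and 3. This sign rested on single arrays: without wild type replicate 3 the difference was 0.03, and without pho1 replicate 1 it was 0.06.

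**Figure D1:**
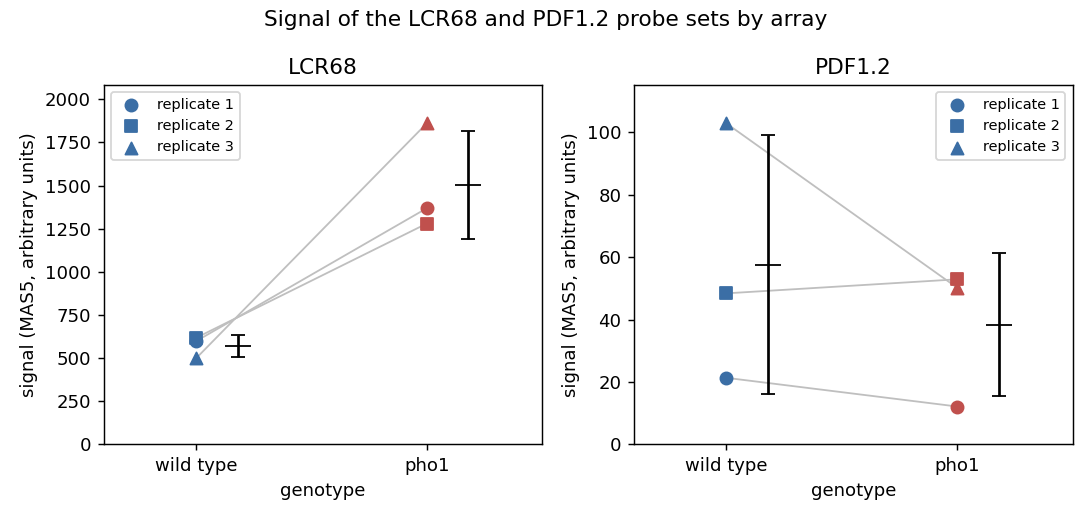
Signal (MAS5, arbitrary units, linear axis from 0) of the LCR68 and PDF1.2 probe sets on each array, with grey lines joining arrays of the same replicate number and bars giving mean ± SD (n = 3). LCR68 lies between 497.4 and 616.3 in wild type and between 1279.0 and 1859.9 in pho1, whereas the PDF1.2 values of both genotypes overlap.

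The genes also differed in how steady they were within a genotype. The difference between the group means does not enter this measure. The measure does enter the test between the genotypes, so it may not be independent of how the pair was selected. LCR68 had a within-group SD of 0.23 on the log2 scale, close to the median of 0.25 over all tested probe sets. PDF1.2 had a within-group SD of 0.89, and 98.6% of the tested probe sets had a smaller one. Among those with a mean log2 value within 0.25 of that of PDF1.2 the share was 98.4%. The highest wild-type signal was 1.24 times the lowest for LCR68 and 4.83 times the lowest for PDF1.2. In pho1 these ratios were 1.45 and 4.37.

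PDF1.2 was lowest on both replicate 1 arrays, which stood apart in this series. The 24 control probe sets for the added transcripts of thr, phe, lys and dap had medians of 3.75 and 2.1 there, against 43.9 to 88.3 on the other 4 arrays. The labels name no batch. PDF1.2 was at 21.3 and 12.1 on the replicate 1 arrays and between 48.4 and 102.9 on the other 4. In a limma fit with genotype and replicate 1 against replicates 2 and 3 as terms, PDF1.2 was lower in replicate 1 with a coefficient of -1.43 ± 0.25 on the log2 scale (SE; limma adjusted p = 0.017). This comparison was chosen after the data had been seen, so its p-values here and below are not independent evidence. In that fit 5.8% of tested probe sets were called lower and 4.68% higher in replicate 1. The call ended with array weights (limma adjusted p = 0.0765) and without wild type replicate 1 (0.0503), pho1 replicate 1 (0.0503) or pho1 replicate 2 (0.066). LCR68 differed by -0.03 ± 0.19 between the same sets of arrays (SE; limma adjusted p = 0.93). Of 3 leaf marker genes tested, RCA and LHCB4.2 were called higher in replicate 1 in the same fit, at 0.63 and 0.79 on the log2 scale (limma adjusted p = 0.035 and 0.037). With quantile normalization they were at 0.02 and 0.25 (limma adjusted p = 0.90 and 0.31), and the calls ended under 9 and 8 of 17 alternatives. Their part in the PDF1.2 difference was not tested, nor was whether a batch, the plants or the RNA set replicate 1 apart. In replicates 2 and 3 on their own, pho1 minus wild type was 1.46 for LCR68 and -0.40 for PDF1.2.

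Among the other defensins, none passed the test between pho1 and wild type. RefSeq's table for the assembly TAIR10.1 lists 89 genes as defensins or low-molecular-weight cysteine-rich (LCR) proteins. Of these, 13 had a named probe set, LCR68 and PDF1.2 included, and 5 of the 13 were bright enough to be tested, among them both members. The other 3 tested ones are LCR69, PDF1.2b and PDF1.4. With limma, 0 of these 3 were called at an adjusted p under 0.05, and 0 had an unadjusted p under 0.05, against 2.96% of all tested probe sets called in this comparison (2.62% higher and 0.345% lower). Their median log2 difference was 0.04, and that of all tested probe sets was -0.02.

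LCR69 (PDF2.2, AT2G02100) is the only other tested gene of the PDF2 class. The reference table places LCR69, PDF2.1, LCR68, LCR72 and LCR73 close together on chromosome 2, with PDF2.1 and LCR72 as the genes next to LCR68. LCR69 was bright in both genotypes, and its signal was 469.4, 683.8 and 916.3 in wild-type replicates 1, 2 and 3, and 585.7, 885.7 and 620.0 in pho1 replicates 1, 2 and 3. The groups overlapped throughout, with means of 689.8 and 697.1. The log2 difference was 0.04 ± 0.28 (SE; limma adjusted p = 0.97), and it was 0.31, 0.37 and -0.56 by replicate number. The genes next to LCR68 on either side were dim: PDF2.1 had a highest signal of 11.6 and LCR72 one of 13.0, below the limit for testing. Of the 10 genes nearest to LCR68, 5 on each side, 3 were tested and 0 were called (limma, 0 with an unadjusted p under 0.05), with log2 differences between 0.01 and 0.41, beside 2.96% called over all tested probe sets. In replicates 2 and 3 on their own 1 of the 3, AT2G02160, was called higher (0.60; limma adjusted p = 0.031), where 9.72% of all tested probe sets were called higher and 9.26% lower. Of the 10 genes nearest to PDF1.2, 4 were tested and 0 were called over all arrays (limma, 0 with an unadjusted p under 0.05), with log2 differences between -0.67 and 0.85. In replicates 2 and 3 on their own 2 of these 4 were called, AT5G44410 lower (-0.87; limma adjusted p = 0.040) and CML43, a calmodulin-like gene, higher (1.15; limma adjusted p = 0.024). CML43 also passed without wild type replicate 1 (1.27; limma adjusted p = 0.047). These 3 genes were named after their values were seen.

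PDF1.2b (AT2G26020) encodes a close copy of PDF1.2 on another chromosome. Its signal was 41.5, 109.6 and 384.0 in wild-type replicates 1, 2 and 3, and 44.3, 177.3 and 129.6 in pho1 replicates 1, 2 and 3. As for PDF1.2, the lowest values were those of both replicate 1 arrays and the highest was that of wild type replicate 3. The name of the PDF1.2b probe set carries the suffix by which the manufacturer marks probes that also match other sequences, so signals of PDF1.2, PDF1.2b and the third copy, PDF1.2c, may not be separate. No probe set is paired with PDF1.2c, which lies next to PDF1.2 on chromosome 5. Between genotypes PDF1.2b differed by -0.26 ± 0.72 (SE; limma adjusted p = 0.92). Without wild type replicate 3 the difference was 0.52, and without pho1 replicate 1 it was 0.27. PDF1.2b was lower in replicate 1 than in replicates 2 and 3 at -1.82 on the log2 scale (limma adjusted p = 0.034), and this call ended under 7 of 17 alternatives, among them without wild type replicate 1 (0.138), pho1 replicate 1 (0.064), pho1 replicate 2 (0.104) or pho1 replicate 3 (0.060).

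PDF1.4 (AT1G19610), a further defensin of the PDF1 class, had overlapping signals of 39.9, 21.5 and 52.3 in wild type and 49.5, 30.1 and 37.2 in pho1. It differed by 0.07 ± 0.28 between genotypes (SE; limma adjusted p = 0.95). The 8 remaining defensin probe sets were too dim to be tested. Of these, 7 stayed below the limit of 17.4 on every array. LCR66 (PDF2.4) exceeded it in wild type replicate 3 with a signal of 41.5 and in pho1 replicate 2 with 24.7.

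**Figure D2:**
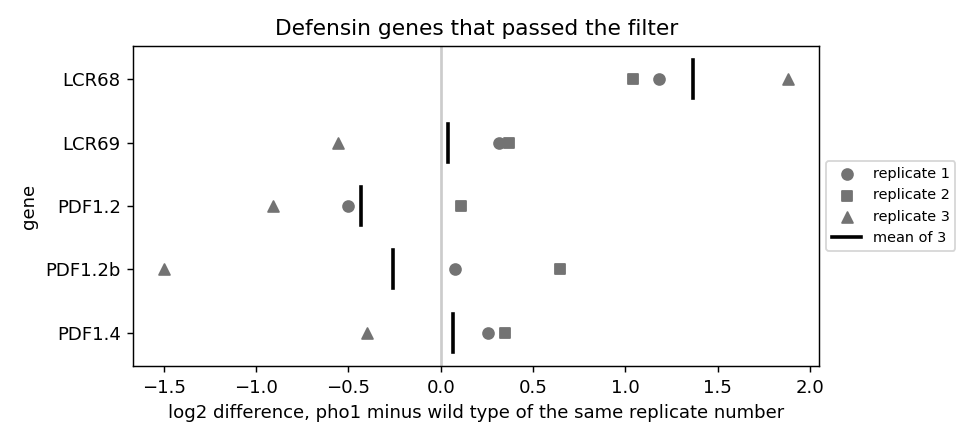
Log2 difference between the pho1 and the wild-type array of each replicate number (grey symbols) and their mean (black bar) for the 5 defensin genes bright enough to be tested. LCR68 lies between 1.04 and 1.88, while each of the other genes has differences on both sides of 0.

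Genes whose profiles over the 6 arrays were most like those of the members were found by the root mean square difference between log2 profiles, each centred on its own mean, among 8845 tested probe sets with a single gene. This is a description, and the likeness of LCR68 to other genes rests largely on the genotype difference for which it was chosen. Nearest to LCR68 were AT1G69840 (0.15), AT3G21620 (0.15), AT1G70900 (0.15), AT1G68670 (0.16) and AT4G26620 (0.17), against a median of 0.76 over all candidates. The first of these, AT1G69840, had signals of 189.5, 158.3 and 178.9 in wild type and 398.4, 407.5 and 616.9 in pho1, and like LCR68 it was highest in pho1 replicate 3. AT3G21620 was at 13.5, 14.9 and 13.5 in wild type, below the limit for testing of 17.4. It was a candidate only through its pho1 signals of 56.0, 47.6 and 57.0.

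The profiles nearest to PDF1.2 differed from it more. They were AT3G63090 (0.23), AT3G55020 (0.23), scpl35 (0.25), a serine carboxypeptidase-like gene, rpoB (0.25), which encodes a subunit of the plastid RNA polymerase, and AT3G22660 (0.26), against a median of 0.79. All 5 were low on both replicate 1 arrays and highest in wild type replicate 3. The signals of scpl35 were 63.5, 156.4 and 310.3 in wild type and 82.2, 171.9 and 166.6 in pho1. PDF1.2b stood at place 32 of the 8845, with a difference of 0.35 from PDF1.2.

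**Figure D3:**
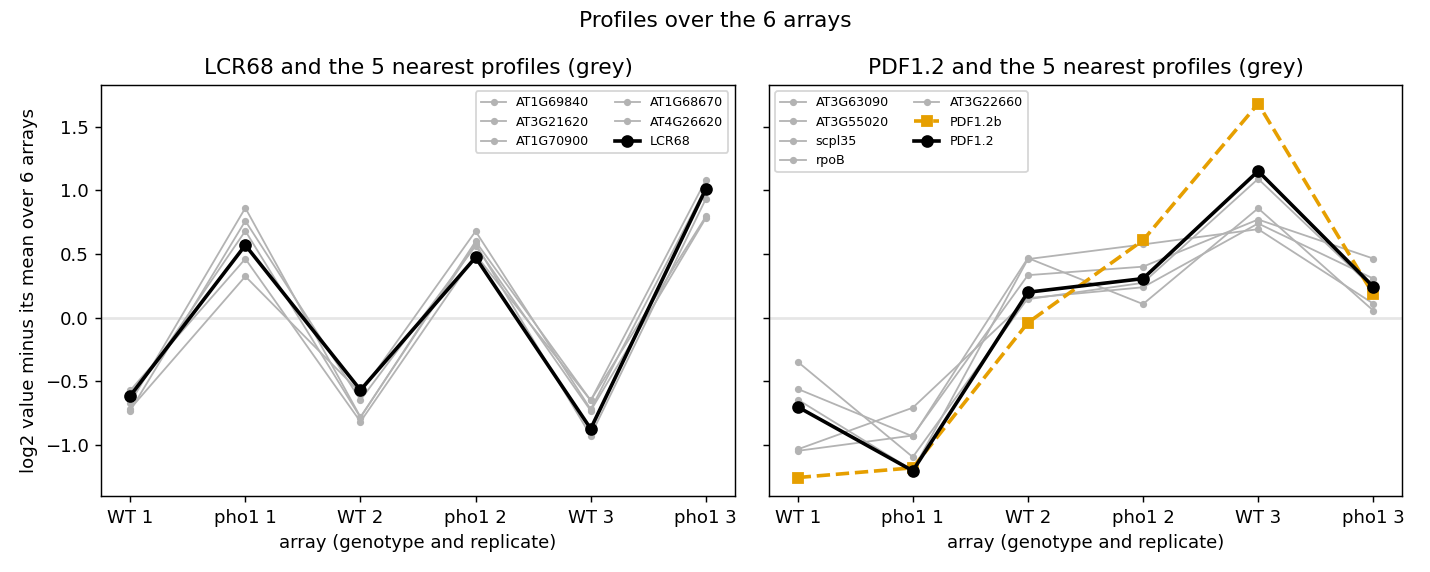
Log2 values of LCR68 (left) and PDF1.2 (right) on each array, minus their mean over the 6 arrays, with the 5 nearest profiles in grey and PDF1.2b dashed. LCR68 and its nearest profiles alternate with genotype in every replicate, while PDF1.2 and its nearest profiles are lowest on both replicate 1 arrays and highest in wild type replicate 3.

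The signalling genes around PDF1.2 were looked at through 9 lists of jasmonate, ethylene, salicylate and defence genes with 135 entries in all. Only 13 entries had a named probe set and 12 were tested, so most of the pathway was not analysed here. Of the 12, 2 rose and 0 fell in pho1 (limma, adjusted p under 0.05), beside 2.62% and 0.345% of all tested probe sets, with a median log2 difference of 0.28. In replicates 2 and 3 on their own 5 of the 12 were called higher and 0 lower, where 9.72% of all tested probe sets were called higher and 9.26% lower. WRKY53, among these 5, was tested only through its pho1 signals, as given below. The lists were chosen with earlier results of these data known, so these counts are a description and not a test of the lists.

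On the jasmonate side, OPCL1 rose. It encodes a ligase that activates jasmonate precursors in the peroxisome. Its signal was 150.1, 121.4 and 149.9 in wild type and 232.6, 279.7 and 246.3 in pho1, with no overlap. The log2 difference was 0.81 ± 0.17 (SE; limma adjusted p = 0.044), and it was 0.60, 1.14 and 0.68 by replicate number. This call lay close to the threshold. It ended without wild type replicate 2 (limma adjusted p = 0.225), wild type replicate 3 (0.115), pho1 replicate 2 (0.203) or pho1 replicate 3 (0.171), with median centring (0.054), with quantile normalization (0.052) and with no filter (0.056). MYC3 and MYC4, transcription factors of the jasmonate pathway, differed by -0.15 and 0.07 (limma adjusted p = 0.92 and 0.96). Both were called lower in replicate 1, at -0.96 and -0.86 on the log2 scale (limma adjusted p = 0.037 and 0.013). PDF1.2 was lower there too. Of all tested probe sets 5.8% were called lower and 4.68% higher in replicate 1, and a link between these genes was not tested. The calls of MYC3 and MYC4 ended under 6 and 2 of 17 alternatives, with adjusted p of up to 0.127 and 0.054. Without pho1 replicate 1 the value of MYC3 was -0.44.

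The 2 tested ethylene genes and the 2 tested ERF genes gave no call, beside 2.96% called over all tested probe sets. With so few genes tested, this says little about either list. EIN3, the transcription factor at the end of ethylene signalling, differed by 0.12 (limma adjusted p = 0.85). RTE1, a regulator of the ethylene receptor ETR1, differed by -0.10 (limma adjusted p = 0.85). ORA47, an ERF-type activator of jasmonate synthesis genes, had signals of 39.5, 31.2 and 32.8 in wild type and 70.0, 45.7 and 39.5 in pho1, so that the lowest pho1 and the highest wild-type signal were the same (0.45; limma adjusted p = 0.38). OSM34, an osmotin-like antifungal protein gene, ranged from 8.7 to 134.3 in wild type and from 2.3 to 79.3 in pho1, with a difference of 0.07 (limma adjusted p = 0.98). Neither of the 2 tested ethylene genes nor of the 2 tested ERF genes had an unadjusted p under 0.05.

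On the salicylate side, which restrains PDF1.2, GRX480 rose. It encodes a glutaredoxin that binds TGA transcription factors and lowers PDF1.2 expression when overproduced. Its signal was 38.9, 15.5 and 44.6 in wild type and 102.7, 203.5 and 322.8 in pho1. This was a rise of 2.29 ± 0.42 on the log2 scale (SE; limma adjusted p = 0.028). By replicate number GRX480 differed by 1.2, 3.07 and 2.61, and PDF1.2 by -0.50, 0.11 and -0.91. A link of GRX480 to PDF1.2 in these samples was not tested. The call of GRX480 ended with no filter (limma adjusted p = 0.071) and without wild type replicate 2 (0.0953), pho1 replicate 2 (0.125) or pho1 replicate 3 (0.113). WRKY53 and SAG101, the other tested genes of this list, which were named after their values were seen, differed by 1.22 and 0.67 (limma adjusted p = 0.14 and 0.17). The signals of WRKY53 were 19.9, 10.4 and 17.3 in wild type and 25.6, 48.3 and 91.2 in pho1. Its wild-type mean of 15.9 was below the limit for testing of 17.4, so it was tested only through its pho1 signals. WRKY53 is a transcription factor of leaf senescence and defence, and SAG101 acts with the immune regulator EDS1.

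Thionins are another class of small antimicrobial peptides rich in cysteine. THI2.1, a jasmonate-responsive thionin gene, had signals of 30.7, 15.3 and 48.1 in wild type and 29.6, 179.4 and 187.0 in pho1. The groups overlapped through pho1 replicate 1, and the log2 difference of 1.54 ± 0.60 did not pass (SE; limma adjusted p = 0.27). Without pho1 replicate 1 it was 2.30 and passed (limma adjusted p = 0.0094), and in replicates 2 and 3 on their own it was 2.33 (limma adjusted p = 0.0053). THI2.2 differed by -0.39 (limma adjusted p = 0.91). It was higher in replicate 1, at 297.1 in wild type and 346.4 in pho1 against 11.1 to 70.9 on the other arrays, which is 2.66 on the log2 scale (limma adjusted p = 0.018) and opposite in sign to PDF1.2. That call ended under 3 of 17 alternatives, with an adjusted p of up to 0.072 without pho1 replicate 1.

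**Figure D4:**
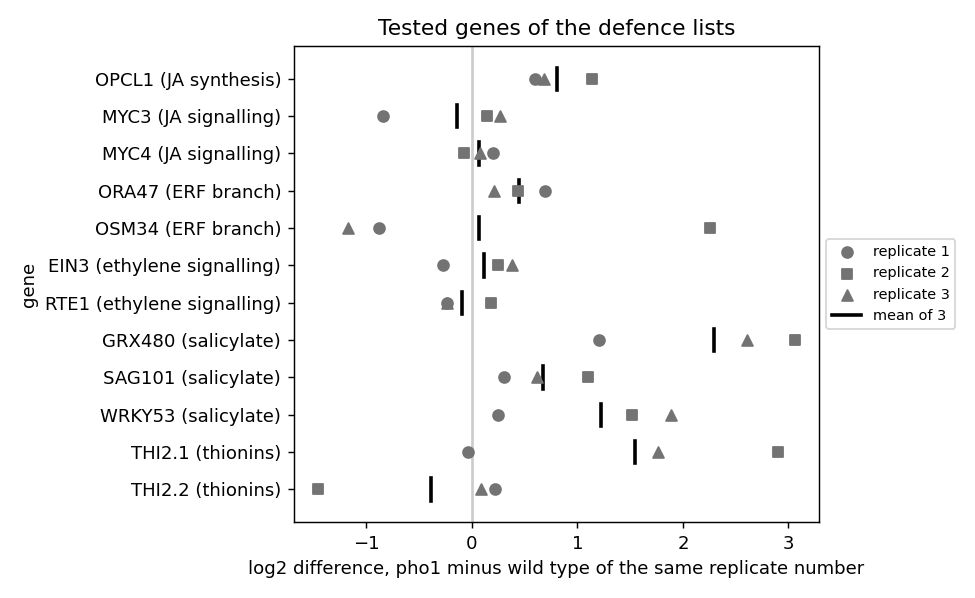
Log2 difference between the pho1 and the wild-type array of each replicate number (grey symbols) and their mean (black bar) for the 12 tested genes of the jasmonate (JA), ethylene, salicylate and thionin lists. GRX480 (2.29) and OPCL1 (0.81) passed the test over all probe sets, and THI2.1 lies at -0.04 in replicate 1, 2.90 in replicate 2 and 1.76 in replicate 3.

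The tissue label was checked against marker genes. The leaf genes RCA, LHCB4.2 and SBPASE had signals between 1194.5 and 5144.5 on all arrays. None passed between the genotypes over all arrays, with differences of 0.03, 0.28 and -0.56 (limma adjusted p = 0.98, 0.79 and 0.39). In replicates 2 and 3 on their own they differed by 0.04, 0.48 and -0.80. There SBPASE was called lower (limma adjusted p = 0.019), as were 9.26% of all tested probe sets. RCA and LHCB4.2 differed between the replicates as given above. Of the root markers only PYK10 had a named probe set, with overlapping signals between 173.1 and 571.1 and a difference of 0.80 (limma adjusted p = 0.35). The trichome gene TRY and the guard cell gene FMA (FAMA) differed by -0.54 and 0.28 (limma adjusted p = 0.35 and 0.53). No marker of flowers, seeds or phloem had a named probe set, and the part of any of these cell types in the values of LCR68 and PDF1.2 was not tested.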

How the data were processed

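The deposited values are linear intensity signals per probe set, which the authors computed with MAS5, per the submitters' processing notes (no version is given in the sources used here). Trimmed means (2% at each end) of the 6 arrays lay at 100.01, so the arrays had been scaled before deposit; array medians were 41.4 to 46.6. The number of arrays limits the precision. The table held 0 columns of other samples. Arrays were scaled to their mean trimmed mean and 10% of that mean was added before taking log2, which understates differences of dim probe sets. After leaving out 64 control probe sets, 15922 remained once those whose mean log2 value fell under the 30th percentile (a signal of 17.4) were dropped, and these were fitted in limma 3.58.1 (R 4.3.3; lmFit and eBayes with intensity trend, two-sided, no block, Benjamini-Hochberg, threshold 0.05). The procedure was tested on simulated data. Plots were drawn with matplotlib 3.10.9. No set tests were run.

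Probe sets were named through the platform annotation and the RefSeq table of TAIR10.1: 13513 had 1 gene (13436 matched a locus), 503 several and 8730 none listed. No sequences were used here. Members and lists were chosen with earlier results of these data known. Named are the members, all other tested defensins, per list up to 4 called genes or else the 2 with the smallest p, and the 5 nearest profiles; WRKY53, SAG101, AT2G02160, AT5G44410, CML43, RCA and the defensin LCR66 were added after their values were seen. The comparison of replicate 1 with replicates 2 and 3 was also chosen after the data had been seen. After subtracting group means, arrays of the same number correlated at 0.42, 0.22 and 0.39, and the block therefore treats them as pairs; this comes from the data, and pho1 replicate 2 with wild type replicate 3 gave 0.33. Alternatives were other scalings, offsets, filters and variance models, the replicate block and leaving out arrays.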

Additional observations from a re-analysis of the deposited data

How the results depend on the processing

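The log2 difference of LCR68 stayed between 1.21 and 1.47 under all 20 alternatives. That of PDF1.2 lay between -0.89 and 0.06. It changed sign without wild type replicate 3 (0.03) and without pho1 replicate 1 (0.06). These moves were smaller than the within-group SD of each gene, which was large for PDF1.2 (0.89). Leaving out single arrays set the limits of both ranges. With the replicate number as a block the difference of LCR68 was 1.37 and that of PDF1.2 -0.43, as without it. The block changed no call of a named gene, but it moved the counts over all probe sets from 417 higher and 55 lower to 788 and 269. Those counts were 263 and 26 with no filter, 1982 and 1807 with array weights, 900 and 419 with replicate 1 against replicates 2 and 3 as a block, and 1547 and 1474 in replicates 2 and 3 alone; leaving out 1 array gave 156 to 760 higher and 3 to 280 lower. The cause was not tested. Some differences that were not called changed sign. With median centring, which moved the median of all tested probe sets to -0.09, PDF1.4 was at -0.0040, LCR69 at -0.029, OSM34 at -0.0029, MYC4 at -0.0052 and the replicate 1 difference of LCR68 at 0.023. PDF1.4 was at -0.015 with quantile normalization and OSM34 at -0.10 with an offset of 1. With array weights RTE1 was at 0.019, MYC3 at 0.12, MYC4 at -0.0036 and the replicate 1 difference of LCR68 at 0.074. In replicates 2 and 3 alone PDF1.4 was at -0.026, LCR69 at -0.094, MYC3 at 0.20 and MYC4 at -0.00025. Leaving out 1 array gave ranges of -0.21 to 0.28 for PDF1.4, -0.21 to 0.27 for LCR69, -0.95 to 0.52 for PDF1.2b, -0.49 to 1.00 for OSM34, -0.40 to 0.35 for MYC3, -0.25 to 0.32 for MYC4, -1.42 to 0.62 for THI2.2 and -0.17 to 0.11 for the replicate 1 difference of LCR68. Array weights called 1982 higher and 1807 lower among the 15922 tested probe sets, against 417 and 55 in the main fit. With them THI2.1, WRKY53, SAG101, SBPASE, TRY, FMA, PYK10, AT2G02160, AT5G44410 and CML43 passed the threshold. Of these, THI2.1, WRKY53, SAG101, SBPASE, AT2G02160, AT5G44410 and CML43 also passed in replicates 2 and 3 alone. There 9.72% of all tested probe sets were called higher and 9.26% lower. All these settings share arrays, so the passes are not separate evidence. THI2.1 and WRKY53 passed without pho1 replicate 1 as well, and CML43 without wild type replicate 1. PDF1.2 was too dim to be tested with the filter at the 50th percentile. The promoter motif search that had been planned was not run.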
